A study of Mus musculus with 6 samples.

Results

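CC chemokines are small secreted proteins named for 2 adjacent cysteines near their start, and they draw leukocytes along a gradient by binding G protein-coupled receptors of the CCR family. Ccl3, Ccl4, Ccl5, Ccl6 and Ccl9 are inflammatory chemokines, most of which bind CCR1, Ccl2 and Ccl7 recruit monocytes through CCR2, Ccl17 and Ccl22 bind CCR4 on T cells, and Ccl24 is an eotaxin that attracts eosinophils through CCR3. Neutrophils are a known source of Ccl3 and Ccl4 in inflamed tissue. The 10 genes described here, Ccl2, Ccl3, Ccl4, Ccl5, Ccl6, Ccl7, Ccl9, Ccl17, Ccl22 and Ccl24, were taken by gene symbol from the 45777 genes of the deposited table, and all 10 were found.

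The libraries were made from polyadenylated RNA of neutrophils that had been purified on a Percoll density gradient, with wild type C57BL/6 mice as the source of the marrow. The PGE2 group was cultured for 24 h with 10 µM prostaglandin E2, a lipid mediator that raises cAMP in leukocytes, and the vehicle group for 24 h with the vehicle, which the series names as DMSO. Each group held 3 libraries, stated to be biological replicates. The labels used here state no sex or age of the mice and do not say whether animals were pooled. Levels are given as TPM (transcript abundance relative to all transcripts of the library, which accounts for gene length and allows genes to be compared) or as CPM (read counts relative to the TMM-scaled library size, used to compare groups for the same gene). A gene passed when its adjusted p in edgeR's quasi-likelihood test, Benjamini-Hochberg adjusted over all 15947 genes tested, was under 0.05.

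Total counts were 42091346 to 56238941 per library. Genes that define neutrophils were all present: all 12 of the list were tested, S100a9 alone stood at 114596 to 136885 TPM, and 7 of the 12 fell with PGE2. The sum of the 12 was 239399 to 247381 TPM in vehicle and 235758 to 254403 TPM in PGE2, so the groups overlapped. Markers of other cells were present at lower summed levels, the erythroid markers highest among them. Their counts stand beside the 10.1% of all tested genes that rose and the 14.3% that fell. Summed over each list, T and NK cell markers (10 genes) came to 82.7 to 163 TPM in vehicle and 75.1 to 199 TPM in PGE2, with none passing the edgeR test. Dendritic cell markers (10 genes, of which 2 rose and 1 fell) came to 429 to 485 and 466 to 678 TPM. Monocyte and macrophage markers (14 genes, 3 of which fell) came to 1409 to 2216 TPM in vehicle and 907 to 1494 TPM in PGE2. Eosinophil markers (9 genes, 6 of which fell) came to 305 to 557 and 112 to 220 TPM. B cell markers (7 genes, 4 of which rose) came to 428 to 615 and 628 to 1096 TPM. Erythroid markers (7 genes, none passing the edgeR test) came to 13409 to 54890 TPM in vehicle and 43676 to 123469 TPM in PGE2. Hemoglobin genes took 0.413 to 1.86% of the counts in vehicle and 1.57 to 4.87% in PGE2. In bulk RNA, fewer cells of a type and less RNA per cell cannot be told apart.

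With PGE2, 4 of the 10 CC chemokine genes rose: Ccl9 (log2 fold change 2.11 ± 0.09, SE), Ccl22 (2.01 ± 0.47), Ccl3 (1.00 ± 0.14) and Ccl4 (0.60 ± 0.14). None of the 10 fell. Ccl6, the most abundant, and Ccl5 did not pass, and Ccl2, Ccl7, Ccl17 and Ccl24 were at or near the limit of detection. The count filter was passed by 7 members, all but Ccl7, Ccl17 and Ccl24. The share of all genes tested was 10.1% for rises and 14.3% for falls. The 4 members that rose had every PGE2 value higher than every vehicle value, which held for 20.5% of all genes tested. The median log2 fold change of the 7 tested members was 0.69, beside 0.04 over all genes tested. That median is the value of Ccl2, which has few reads, and the gene at the median differed between settings. The members' median was 0.43 (Ccl2) with a trend on gene length removed and 0.31 (Ccl4) with the replicate block as well. It was 0.46 (Ccl4) without vehicle replicate 1 and 1.07 (Ccl3) without vehicle replicate 3. The median gene stood at -0.06 on the deposited TPM values and at 0.13 with scaling by library totals and no TMM factor, and the share of calls that were rises was 41.5% on the TMM scale, 30.0% on log2(TPM + 1) and 55.5% on library totals.

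**Figure D1:**
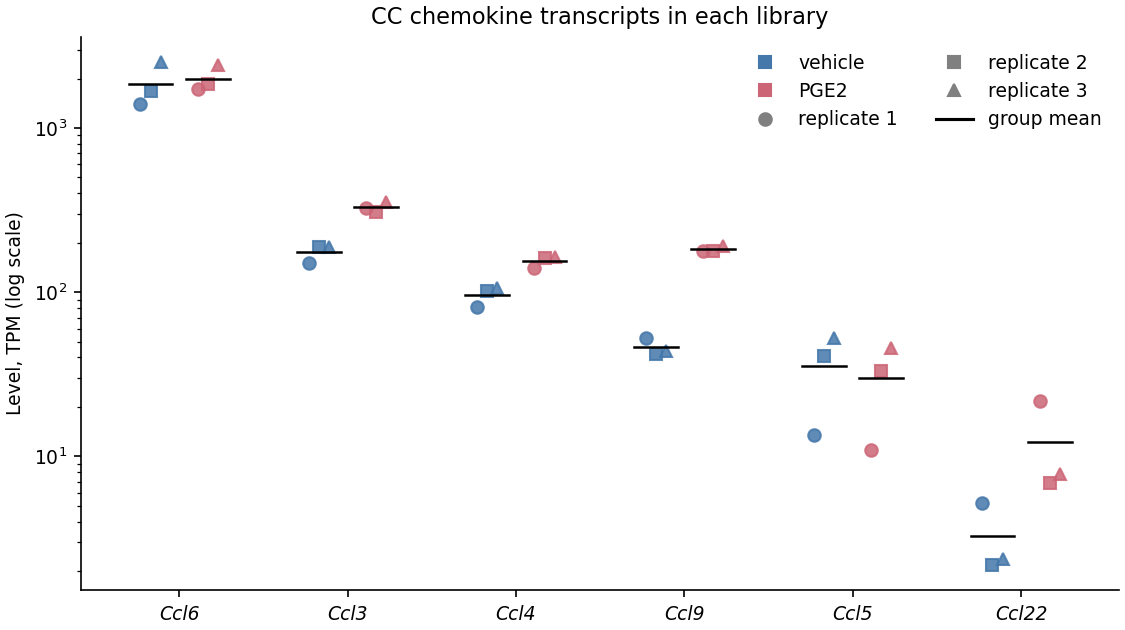
Level of the 6 CC chemokine genes with reads in every library, in TPM on a log scale, with each library as a point (vehicle blue, PGE2 red, shape for the replicate number) and the group mean as a line. Ccl6 lies at 1395 to 2525 TPM in all 6 libraries, while the PGE2 points of Ccl3, Ccl4, Ccl9 and Ccl22 lie above their vehicle points.

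Ccl9 and Ccl6 are neighbours on the reverse strand of chromosome 11 (mm10), Ccl9 at 83572917 to 83578636 and Ccl6 at 83587886 to 83593087. Both encode ligands of CCR1 that mouse myeloid cells make in the absence of an inflammatory stimulus. Their promoters are shown because only Ccl9 of this pair rose, together with those of Ccl3 and Ccl22, which rose as well. Each line holds the 250 bases before the RefSeq start of the gene, read 5′ to 3′ on the gene's own strand, from RefSeq GRCm38.p6. Capitals mark matches to the motifs searched.
Ccl9, chr11:83578637-83578886, reverse strand: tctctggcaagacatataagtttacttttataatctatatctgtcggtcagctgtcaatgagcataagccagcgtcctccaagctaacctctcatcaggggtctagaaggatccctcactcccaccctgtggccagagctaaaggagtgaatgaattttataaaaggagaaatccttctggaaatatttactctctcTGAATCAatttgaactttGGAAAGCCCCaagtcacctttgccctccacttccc
Ccl6, chr11:83593088-83593337, reverse strand: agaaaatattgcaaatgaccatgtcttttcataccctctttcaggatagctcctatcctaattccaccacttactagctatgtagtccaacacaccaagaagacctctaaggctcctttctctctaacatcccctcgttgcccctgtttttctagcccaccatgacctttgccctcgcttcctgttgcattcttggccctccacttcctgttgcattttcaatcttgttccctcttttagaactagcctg
Ccl3, chr11:83649379-83649628, reverse strand: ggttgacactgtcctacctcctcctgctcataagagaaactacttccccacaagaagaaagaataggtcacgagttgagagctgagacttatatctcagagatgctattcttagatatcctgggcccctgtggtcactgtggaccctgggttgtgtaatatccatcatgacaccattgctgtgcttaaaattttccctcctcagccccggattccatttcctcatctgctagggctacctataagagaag
Ccl22, chr8:94745434-94745683, forward strand: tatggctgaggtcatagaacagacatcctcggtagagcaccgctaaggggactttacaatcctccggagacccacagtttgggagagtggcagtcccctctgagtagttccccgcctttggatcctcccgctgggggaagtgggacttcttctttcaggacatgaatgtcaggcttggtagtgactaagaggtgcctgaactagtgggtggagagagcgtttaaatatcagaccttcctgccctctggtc
The search covered both strands for the cAMP response element TGACGTCA, its half-site TGACG (which the full element contains), the AP-1 site TGANTCA and the NF-kB consensus. The reference held promoters for 5 of the 10 members, these 4 and Ccl17. The Ccl17 window, at 94810203 to 94810452 on chromosome 8, lies inside the deposited gene span, which begins at 94809380. It ends just before the start at 94810453 in the GENCODE M21 annotation. Ccl22 begins at 94745590 in GENCODE M21, so the last part of its printed window lies inside that gene span. Only the Ccl9 window held any match: an AP-1 site whose leftmost base lies 53 bases before the start and an NF-kB consensus match 35 bases before it. Over the 32851 promoter windows of the same length, 6.75% held the AP-1 site, 7.25% the NF-kB consensus, 17.8% the cAMP half-site and 1.55% the full element. Among the 10 pairs of member windows, the best local alignment was between Ccl6 and Ccl9, with 16 of 17 bases identical, at 59 to 43 bases before the start of Ccl6 and 18 to 2 bases before that of Ccl9. Capitals mark the identical bases.
Ccl6: CTTgGCCCTCCACTTCC
Ccl9: CTTtGCCCTCCACTTCC
These matches describe the sequence and are not evidence that a factor binds there.

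Ccl9, also known as MIP-1 gamma, was at 83.7, 76.1 and 76.5 CPM in vehicle replicates 1, 2 and 3 and at 316, 368 and 334 CPM in the PGE2 replicates. Every PGE2 library was thus far above every vehicle library, and the libraries within a group were close to each other. The rise was 4.31-fold, with an edgeR adjusted p of 6.69e-05, and ranked 169th of the 15947 tested genes. Of the 10 genes, Ccl9 was the only one that also passed a test against a minimum log2 fold change of 1 (adjusted p = 0.000416, edgeR's glmTreat). By TPM, averaged over each group, its place among all genes in the table moved from 2633rd in vehicle to 604th in PGE2.

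Ccl6, also called C10, was at 1065, 1446 and 2109 CPM in vehicle and at 1451, 1813 and 2030 CPM in PGE2. The groups overlap: replicate 1 was the lowest and replicate 3 the highest of each group, and the highest library of all was vehicle replicate 3. Its log2 fold change was 0.20 ± 0.24 with an edgeR adjusted p of 0.601. Between same-numbered libraries the log2 differences were 0.45, 0.33 and -0.05, and with the replicate number as a block in the edgeR fit the change was 0.24 ± 0.11 (adjusted p = 0.129). Without vehicle replicate 3 the log2 fold change was 0.49 and without vehicle replicate 1 it was -0.002, so its size rested on single libraries, and with the length trend removed it was 0.07. Ccl6 ranked 42nd of all genes by mean TPM in vehicle and 40th in PGE2.

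The ratio of Ccl9 to Ccl6 in TPM, taken within each library, was 0.0375, 0.0251 and 0.0173 in vehicle and 0.104, 0.0969 and 0.0784 in PGE2. The lowest PGE2 ratio was above the highest vehicle ratio, and the ratio was 3.65-fold higher with PGE2 in the geometric mean. An exact permutation test over the 6 libraries gave p = 0.1 (two-sided), the smallest that 3 against 3 libraries allow, and 0.1 after adjustment over the 2 pairs tested.

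The noncoding gene E230016K23Rik lies on the forward strand across the whole of Ccl6, at 83582061 to 83623693 on chromosome 11. It was picked for its position after its values were seen. It was at 4.50, 3.94 and 4.02 CPM in vehicle and at 9.63, 10.04 and 9.59 CPM in PGE2, a log2 fold change of 1.23 ± 0.14 (edgeR adjusted p = 0.00072). Gm38933, a noncoding gene on the same strand as Ccl6, lies at 83595022 to 83604815, also within the span of E230016K23Rik. It was at 7.75 ± 0.653 CPM in vehicle and 10.00 ± 1.63 CPM in PGE2 (mean ± SD, n = 3 per group). Gm38933 did not pass (edgeR adjusted p = 0.135). No label or header says whether strand entered the counting, so reads of E230016K23Rik may not have been told apart from those of Ccl6 and Gm38933.

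Ccl3 and Ccl4, which encode MIP-1 alpha and MIP-1 beta, are inflammatory chemokines that attract monocytes and T cells, and Ccl3 is a ligand of CCR1. Ccl3 lies at 83647843 to 83649378 on the reverse strand of chromosome 11 and Ccl4 at 83648624 to 83664683 on the forward strand. In the gene models of the deposited files the pair overlap by 755 bases on opposite strands. In GENCODE M21 Ccl4 begins at 83662584 and does not overlap Ccl3. Reads in the shared stretch could have been counted for either gene.

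Ccl3 was at 63.1, 89.95 and 87.1 CPM in vehicle and at 152, 166 and 164 CPM in PGE2. The vehicle libraries differed by 1.43-fold among themselves and the PGE2 libraries by 1.09-fold, and the groups did not overlap. The log2 fold change was 1.00 ± 0.14 (edgeR adjusted p = 0.00164).

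Ccl4 was at 37.7, 51.2 and 53.9 CPM in vehicle and at 66.2, 79.5 and 70.1 CPM in PGE2. All PGE2 libraries were above all vehicle libraries, by a smaller margin than for Ccl3: the highest vehicle library stood at 53.9 and the lowest PGE2 library at 66.2 CPM. The rise was 1.51-fold (edgeR adjusted p = 0.0189). That call was lost without PGE2 replicate 2 (log2 fold change 0.52, adjusted p = 0.0662) and with a trend on gene length removed (0.30 ± 0.13, adjusted p = 0.156), though with the replicate block added to the latter it was kept (adjusted p = 0.0298).

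Within a library, the ratio of Ccl3 to Ccl4 in TPM was 1.84, 1.85 and 1.79 in vehicle and 2.32, 1.90 and 2.18 in PGE2. The vehicle ratios were nearly equal, and each PGE2 ratio was above them, PGE2 replicate 2 by little. The exact permutation test again gave p = 0.1, and 0.1 after adjustment, which is the smallest this design allows. Taken from the estimated counts, the PGE2 minus vehicle change of the log2 ratio was 0.41, in place of 0.22 from TPM.

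Ccl5, known as RANTES, is a ligand of CCR1 and CCR3 that T and NK cells make in quantity. It lies at 83525778 to 83530518 on the reverse strand of chromosome 11, within the span of the noncoding gene Gm32650 on the other strand, which had 0 to 24 counts per library. Ccl5 was at 3.82, 13.1 and 16.3 CPM in vehicle and at 3.42, 12.1 and 14.2 CPM in PGE2. Replicate 1 was the lowest in each group, and the spread among libraries of a group was 4.26-fold in vehicle and 4.16-fold in PGE2. The log2 differences between same-numbered libraries were small beside that spread, at -0.16, -0.12 and -0.19. The edgeR log2 fold change was -0.16 ± 0.59 (adjusted p = 0.88), and with the replicate block -0.16 ± 0.11 (adjusted p = 0.293). With the length trend removed as well as the block, it passed as lower at -0.54 ± 0.11 (adjusted p = 0.00604), in a fit that called 16.5% of all genes lower. The block alone called 16.6% of genes higher and 18.9% lower, and no member lower. The log2 fold change was 0.25 without PGE2 replicate 1 and 0.23 without vehicle replicate 3.

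The T and NK cell markers were likewise lowest in replicate 1. Their summed level was 82.7, 147 and 163 TPM in vehicle and 75.1, 165 and 199 TPM in PGE2, beside 13.5, 40.9 and 52.6 TPM of Ccl5 in vehicle and 10.9, 33.0 and 45.8 TPM in PGE2. All 10 markers had reads, with Cd3e at 8.43, 21.0 and 17.1 TPM in vehicle and 7.02, 20.4 and 23.5 TPM in PGE2, and only the NK receptor gene Ncr1 was at 0 in a library, replicate 1 of each group. Their part in the Ccl5 values was not tested.

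**Figure D2:**
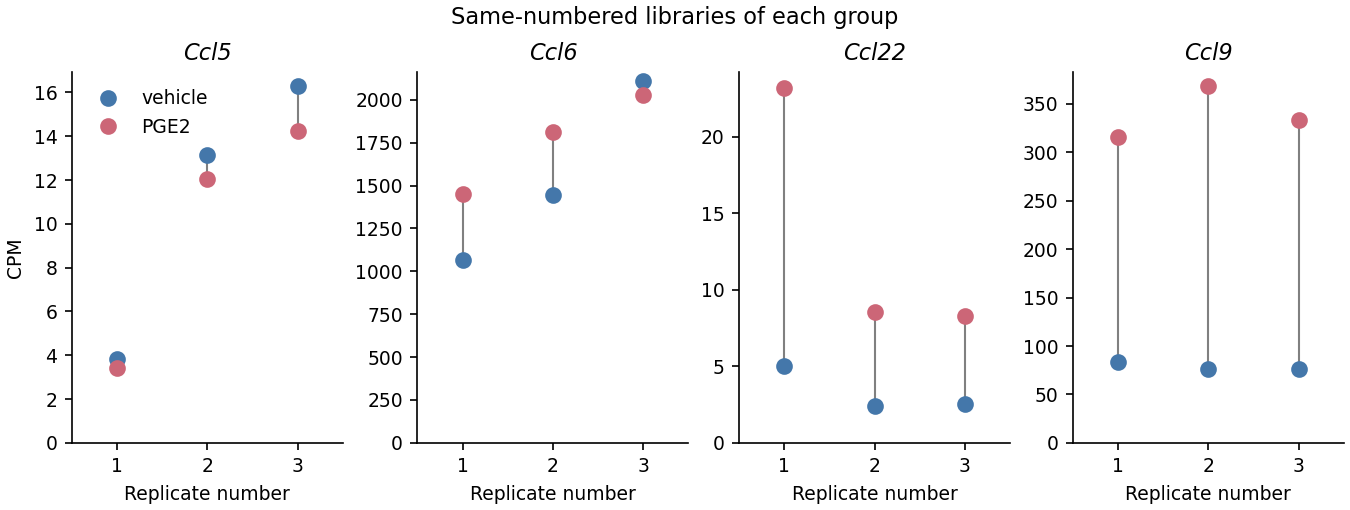
CPM of Ccl5, Ccl6, Ccl22 and Ccl9 by replicate number, with vehicle in blue and PGE2 in red and same-numbered libraries joined by a line. Ccl5 differed more between replicate numbers (3.82 to 16.3 CPM in vehicle) than between the joined libraries, while Ccl9 lay at 76.1 to 83.7 CPM in vehicle and 316 to 368 CPM in PGE2 whatever the number.

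Ccl22 and Ccl17 encode the CCR4 ligands MDC and TARC, which dendritic cells and macrophages are known to make, and they are neighbours on the forward strand of chromosome 8, Ccl22 at 94745684 to 94751388 and Ccl17 at 94809380 to 94812038. Ccl22 was at 4.998, 2.39 and 2.51 CPM in vehicle and at 23.2, 8.53 and 8.28 CPM in PGE2. Replicate 1 was the highest of each group, and the groups did not overlap. The rise was 4.03-fold (edgeR adjusted p = 0.0162), and the same-numbered libraries differed by 2.21, 1.83 and 1.72 on the log2 scale.

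The Ccl22 call was lost without vehicle replicate 2 (log2 fold change 1.83, edgeR adjusted p = 0.0618) and without vehicle replicate 3 (1.84, adjusted p = 0.0583). Without PGE2 replicate 1, the highest library, it was kept with a log2 fold change of 1.35 (adjusted p = 0.0236). With the replicate block the standard error was 0.14 in place of 0.47. Basophil and mast cell markers were also highest in replicate 1, with a summed level over 7 genes of 274, 87.4 and 126 TPM in vehicle and 182, 86.8 and 105 TPM in PGE2. Dendritic cell markers summed to 485, 429 and 452 TPM in vehicle and 626, 466 and 678 TPM in PGE2, and most of that sum was Cd74, the MHC class II invariant chain gene, which B cells also express, at 288, 276 and 270 TPM in vehicle and 434, 321 and 444 TPM in PGE2. Cd74 and Ccr7 were the dendritic cell markers that rose and Clec9a the marker that fell, while Xcr1 was at 0 in 4 of 6 libraries and Zbtb46 at 0.192 to 0.452 TPM. Monocyte and macrophage markers were also highest in replicate 1 of each group, at 2216, 1576 and 1409 TPM in vehicle and 1494, 913 and 907 TPM in PGE2, most of it Ly6c2. Their part in the Ccl22 values was not tested.

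Ccl17 gave no read in any vehicle library, and its counts in PGE2 replicates 1, 2 and 3 were 7, 0 and 0. The reads thus came from a single PGE2 library, the one with the most Ccl22. A count of 0 in the vehicle group allows up to 0.0211 CPM, taking 3 counts over the 3 libraries as the limit, which covers counting error only. No ratio of Ccl22 to Ccl17 was taken.

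Ccl2 and Ccl7, the monocyte attractants MCP-1 and MCP-3, lie side by side on the forward strand of chromosome 11 at 82035577 to 82037452 and 82045712 to 82047525. Ccl2 had 0, 7 and 10 counts in vehicle and 17, 0 and 16 counts in PGE2, so each group held a library at 0. It passed the count filter with 3 libraries at 10 or more, and its log2 fold change of 0.69 ± 1.35 had an edgeR adjusted p of 0.757. At this depth a change of Ccl2 was not detectable. Ccl7 had 0 counts in all 6 libraries, which allows up to 0.00998 CPM over the series.

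Ccl24, on the reverse strand of chromosome 5 at 135569935 to 135573123, gave no read in vehicle, and its PGE2 counts were 6, 0 and 6. Its PGE2 libraries with reads stood at 0.119 and 0.0988 CPM. The limit of 3 counts was 0.0557 to 0.0713 CPM in a single vehicle library, and 0.0211 CPM over the 3 together. With no filter on low counts, edgeR gave Ccl24 an adjusted p of 0.23 and Ccl17 one of 0.346.

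**Figure D3:**
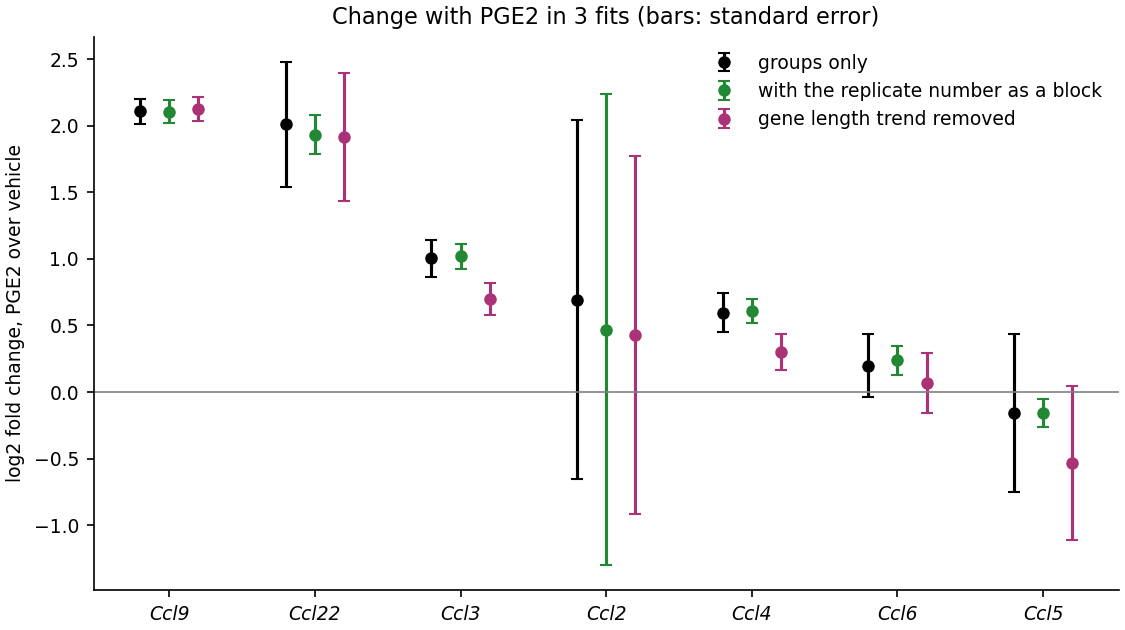
Log2 fold change of PGE2 over vehicle with its standard error for the 7 CC chemokine genes that passed the count filter, from the edgeR fit by group, with the replicate number as a block, and with the trend on gene length removed. Ccl9 stays near 2.11 in all 3 fits, and Ccl3 and Ccl4 move from 1.00 and 0.60 to 0.70 and 0.30 with the length trend removed. The bars of Ccl2 cross 0 in all 3 fits. Those of Ccl5 and Ccl6 cross 0 by group and with the length trend removed, but not with the block.

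By mean TPM the order in vehicle was Ccl6 (1863 ± 589, SD, n = 3), Ccl3 (176 ± 22.5), Ccl4 (96.6 ± 13.1), Ccl9 (46.0 ± 5.58), Ccl5 (35.7 ± 20.1) and Ccl22 (3.25 ± 1.69). In PGE2 it was Ccl6 (1995 ± 377), Ccl3 (329 ± 25.1), Ccl9 (183 ± 6.65), Ccl4 (155 ± 12.4), Ccl5 (29.9 ± 17.7) and Ccl22 (12.2 ± 8.35). Ccl4 was thus above Ccl9 in each vehicle library and below it in each PGE2 library. The ranges of Ccl9 and Ccl5 overlapped in vehicle, and those of Ccl5 and Ccl22 overlapped in PGE2, so these neighbours in the order did not differ beyond their spread.

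The summed TPM of the 10 genes was 1698, 2046 and 2919 in vehicle and 2400, 2525 and 3188 in PGE2, so the groups overlapped in the sum, while in each same-numbered pair the PGE2 library had the higher sum. Ccl6 made up 82.2, 81.6 and 86.5% of that sum in vehicle and 71.7, 72.9 and 76.1% in PGE2. Ccl9 made up 3.08, 2.05 and 1.497% in vehicle and 7.46, 7.07 and 5.97% in PGE2, and Ccl3 went from 8.19 ± 1.48% to 12.3 ± 1.25% (SD, n = 3 per group). Without Ccl6, the sum was 303, 376 and 394 TPM in vehicle and 680, 685 and 763 TPM in PGE2, with no overlap. These sums and shares were not tested.

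**Figure D4:**
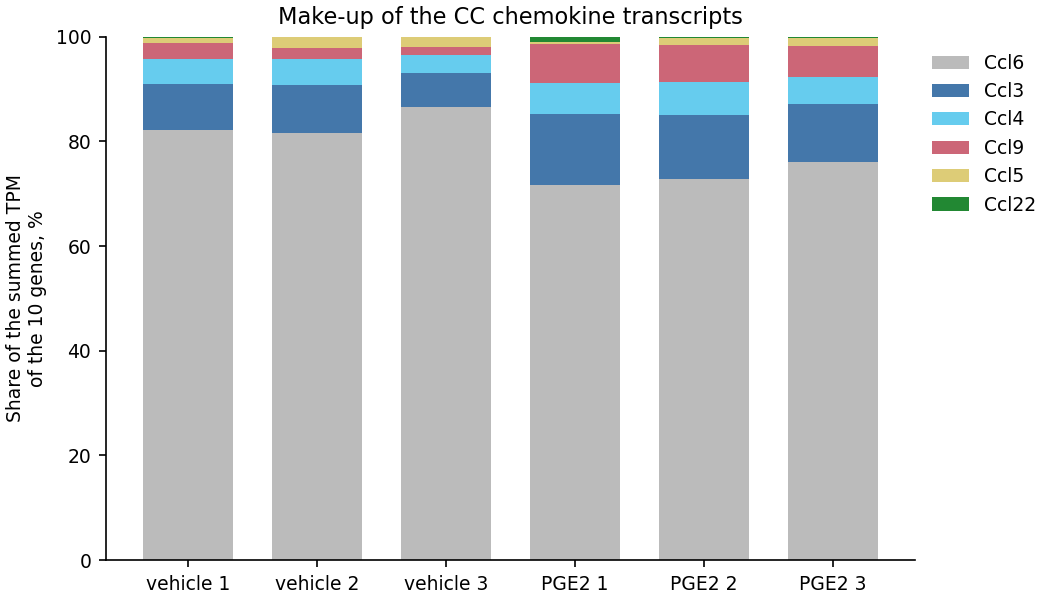
Share of each gene in the summed TPM of the 10 CC chemokine genes, in percent, as a stacked bar per library. Ccl6 (grey) takes 81.6 to 86.5% in the vehicle bars and 71.7 to 76.1% in the PGE2 bars, and Ccl9 (red) and Ccl3 (dark blue) take more in PGE2.

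The genes whose pattern over the 6 libraries was most like that of a member were taken for the 3 members with the highest mean TPM. Likeness was the root mean square difference of log2 CPM after each gene was centred on its own mean. It was taken among 10343 other genes with a mean count of at least 100, leaving out provisional symbols such as Gm38933. Closest to Ccl6 were Ninj1, which encodes a membrane protein of plasma membrane rupture (0.068), Pcgf6 (0.098) and Sdcbp, which encodes syntenin (0.0998). Closest to Ccl3 were Ndufaf8 (0.067), the lysosomal protease gene Ctsl (0.077) and Atp5md (0.084). Closest to Ccl4 were Mcrip1 (0.036), Eloc (0.046) and the ATP synthase subunit gene Atp5l (0.048). Ccl4 stood 216th in likeness to Ccl3, Ccl3 stood 990th in likeness to Ccl4, and Ccl9 stood 10136th in likeness to Ccl6.

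The remaining CC chemokine genes of the mouse gave few reads. Of 12 in the table, 9 had 0 counts in all 6 libraries, among them Ccl8, Ccl11, Ccl19 and Ccl20. Only Ccl25 and Ccl27a were tested, and neither passed the edgeR test: Ccl25 was at 1.19 ± 0.267 and 1.48 ± 0.552 CPM (adjusted p = 0.589) and Ccl27a at 2.23 ± 0.468 and 3.19 ± 0.291 CPM in vehicle and PGE2 (adjusted p = 0.143; SD, n = 3 per group).

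Of 11 receptors that signal for CC chemokines, 7 were tested, of which 3 rose, 1 fell and 3 did not pass, beside 10.1% of all tested genes that rose and 14.3% that fell. Their median log2 fold change was 0.35. Ccr1, the receptor of Ccl3, Ccl5, Ccl6 and Ccl9, was by far the most abundant, at 384, 375 and 419 TPM in vehicle and 514, 505 and 465 TPM in PGE2, and rose by 0.45 ± 0.11 on the log2 scale (edgeR adjusted p = 0.0242). Ccr7, which guides cells to lymph nodes, was at 13.7, 16.8 and 21.3 TPM in vehicle and 22.4, 23.6 and 33.3 TPM in PGE2 and rose by 0.71 ± 0.21 (adjusted p = 0.0424). Ccr9, the receptor of Ccl25, was at 1.60, 1.31 and 1.69 TPM in vehicle and 0.669, 0.433 and 0.947 TPM in PGE2, a log2 fold change of -1.06 ± 0.26 (adjusted p = 0.0219). Groups did not overlap for any of these 3 receptor genes, as in 42.3% of all genes tested. Ccr2, the receptor of Ccl2 and Ccl7, was at 146 ± 30.6 and 126 ± 12.2 CPM in vehicle and PGE2 (SD, n = 3 per group) and did not pass the edgeR test (adjusted p = 0.36). Ccr6, the receptor of Ccl20, was at 3.72 ± 1.25 and 3.20 ± 1.09 CPM and did not pass either (log2 fold change -0.21 ± 0.33, edgeR adjusted p = 0.695). Ccr4, the receptor of Ccl17 and Ccl22, was at 0 to 0.19 TPM and was not tested.

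Each of these receptor calls rested on single libraries. The edgeR adjusted p of Ccr1 was 0.0589, 0.0807 and 0.0797 without vehicle replicate 1, vehicle replicate 2 and PGE2 replicate 2. For Ccr7 it was 0.093, 0.105, 0.0942 and 0.129 without vehicle replicates 1 and 2 and PGE2 replicates 2 and 3, and for Ccr9 it was 0.0593, 0.0502, 0.0767, 0.0573 and 0.0544 without vehicle replicates 1, 2 and 3 and PGE2 replicates 1 and 2. The Ccr7 call was also lost with no count filter (0.0538), with the length trend removed (0.0568) and, by limma, on log2(TPM + 1) (adjusted p = 0.057) and log2(TPM + 0.1) (0.0596), and that of Ccr9 on log2(TPM + 0.1) (0.0594). With the replicate block Ccr1, Ccr7 and Ccr9 kept their call (adjusted p = 0.0118, 0.000584 and 0.00493).

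**Figure D5:**
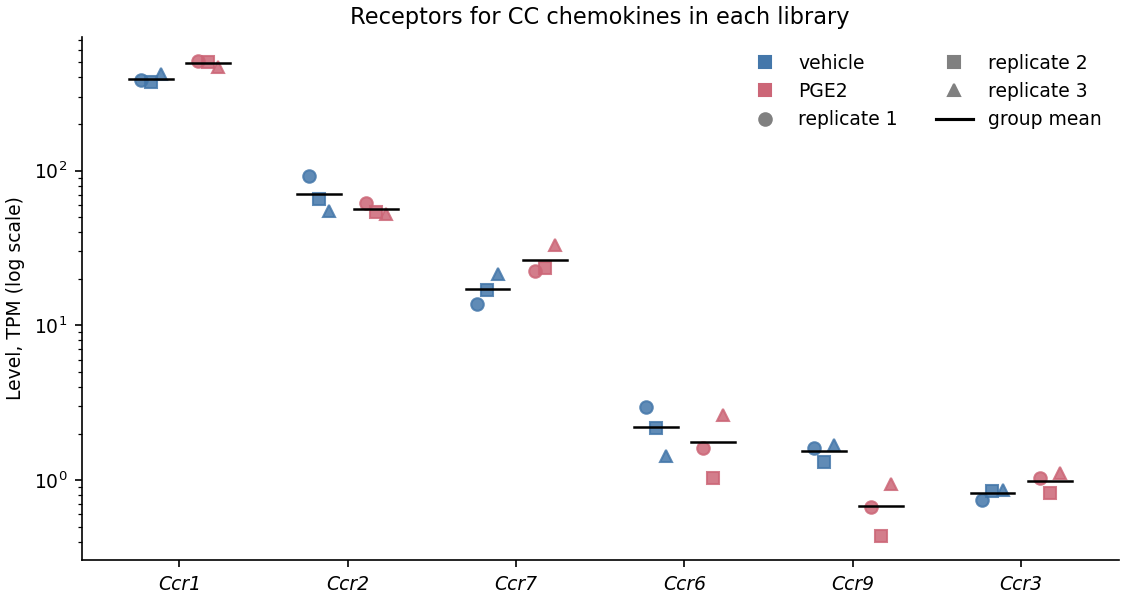
Level of 6 tested CC chemokine receptor genes in TPM on a log scale, with each library as a point (vehicle blue, PGE2 red, shape for the replicate number) and the group mean as a line. Ccr1 lies at 375 to 514 TPM, well above the others, and the PGE2 points of Ccr1 and Ccr7 lie above the vehicle points.

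Of 10 genes for atypical chemokine receptors and for proteins that bind or trim chemokines, 7 were tested, 3 rose and none fell, beside 10.1% of all tested genes that rose. Their median log2 fold change of 1.19 is the value of the scavenging receptor gene Ackr3, which had 6 to 47 counts per library and did not pass (edgeR adjusted p = 0.255). Ccrl2, an atypical receptor that presents chemerin, went from 12.1 ± 4.001 to 35.9 ± 8.92 CPM (log2 fold change 1.57 ± 0.27, edgeR adjusted p = 0.00415). The heparan sulfate proteoglycan gene Sdc4 went from 9.66 ± 1.63 to 18.1 ± 1.09 CPM (edgeR adjusted p = 0.00356). Srgn, which encodes serglycin, the granule proteoglycan that holds basic mediators, went from 986 ± 191 to 3426 ± 588 CPM (log2 fold change 1.80 ± 0.17). Dpp4, whose product clips several CC chemokines, was at 35.4 ± 6.04 and 41.9 ± 9.28 CPM and did not pass (edgeR adjusted p = 0.369), and Sdc1 passed only with the replicate block (adjusted p = 0.273 without it and 0.044 with it). The atypical receptor genes Ackr1, Ackr2 and Ackr4 were each at 0 in at least 2 libraries. Means are with SD, n = 3 per group.

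Of 16 genes that transmit or end the signal of chemokine receptors, 13 fell and none rose, with a median log2 fold change of -0.64, while 14.3% of all genes tested fell. Pik3cg, the catalytic subunit of PI3 kinase gamma, stood at 444 ± 22.0 CPM in vehicle and 204 ± 21.1 CPM in PGE2 (log2 fold change -1.12 ± 0.10). Dock2 and Prex1, exchange factors that activate Rac, went from 477 ± 32.1 to 239 ± 13.3 CPM and from 648 ± 43.7 to 326 ± 11.3 CPM. Arrb1, Arrb2, Grk2 and Grk6, whose products shut off activated receptors, were among the 13 that fell. Arrb1, the beta-arrestin 1 gene, went from 408 ± 34.1 to 220 ± 19.5 CPM (SD, n = 3 per group throughout). The G protein subunit gene Gnb2 did not pass at -0.31 ± 0.12 (edgeR adjusted p = 0.105) and passed with the replicate block (adjusted p = 0.0133). Gnai3, another G protein subunit gene, was at 351 ± 8.88 and 346 ± 41.5 CPM and did not pass (log2 fold change -0.02 ± 0.10, edgeR adjusted p = 0.912), and its sign turned under several alternatives.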

How the data were processed

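The 6 RNA-seq libraries, 3 per group, took their group and replicate number from their titles. The submitters' processing notes name RSEM, STAR, Bowtie2, DESeq2 and StringTie 2.1.3b and the build mm10, without saying which tool made which values. For each gene the deposited series table gives an estimated count, a whole number, and a TPM. Its name calls the counts normalized. Their totals differ between libraries, which does not settle whether they were scaled, and they were used as unnormalised. Per the file headers, the tables the authors deposited for single libraries hold TPM and coverage (a signal of read depth per base); positions were taken from them, and their TPM equalled those of the series table within 0.1% for at least 99.98% of genes. A further 18 columns, of 6 other libraries, were left out.

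Genes with at least 10 counts in at least 3 libraries were tested (15947 of 45777) with edgeR 4.0.16's quasi-likelihood test, TMM scaling, two-sided, in R 4.3.3, and the test was tried on simulated data. Standard errors are from that test. Exact permutation tests over libraries used scipy 1.17.1. Same-numbered libraries correlated at 0.26, 0.17 and 0.19 in their deviations from the group means, and differently numbered vehicle and PGE2 libraries at -0.17 to 0.0019. The numbers, which come from the titles, were therefore taken to pair the libraries, and a replicate block was an alternative. That pairing was thus inferred from these same data. Replicates of a group differed by more than sampling noise (chi-square per gene 33.1 to 118). The members, lists and tests were chosen with earlier results of these data known. All 10 members are named, as are up to 4 genes that passed and up to 2 abundant ones that did not in each list of related genes; Ccl21c was not matched in the table and Adrbk1 is an older symbol of Grk2. A receptor gene is counted in its list and not reported here. Alternatives were DESeq2 1.42.0 size factors or test, leaving out each library in turn, library totals, other count filters, limma 3.58.1 on log2(TPM + 1) and log2(TPM + 0.1), a minimum log2 fold change of 1, and removal, with and without the block, of a per-library trend of log2 CPM on gene length, where length was taken from the ratio of counts to TPM. For other genes than the members these were run after the data were seen.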

Additional observations from a re-analysis of the deposited data

How the results depend on the processing

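Ccl9 passed as higher in all 17 alternatives, with log2 fold changes of 1.97 to 2.19, and Ccl3 in all but the test against a minimum log2 fold change of 1, where the higher members numbered 1, the higher and lower genes overall 105 and 80, and Ccl3 (1.00), Ccl4 (0.60) and Ccl22 (2.01, adjusted p = 0.392) did not pass. That test also left 0 receptors in each direction, 1 higher gene among atypical receptors and chemokine-binding genes and 0 lower signalling genes. Leaving out each library in turn gave 3 to 4 higher members and 0 lower, 999 to 1553 higher and 1642 to 2266 lower genes, and 0 to 3 higher and 0 to 1 lower receptors. The log2 fold changes then ran from 0.13 to 1.27 for Ccl2, 0.87 to 1.09 for Ccl3, 0.46 to 0.70 for Ccl4, -0.56 to 0.25 for Ccl5 (0.23 without vehicle replicate 3), -0.0019 to 0.49 for Ccl6, 2.04 to 2.16 for Ccl9 and 1.35 to 2.45 for Ccl22. The summed TPM ran from 1872 to 2483 in vehicle and from 2463 to 2856 in PGE2, and without Ccl6 it averaged 358 and 709. The change in the log2 ratio of Ccl3 to Ccl4 ran from 0.16 to 0.30 and that of Ccl9 to Ccl6 from 1.59 to 2.15. From estimated counts these changes were 0.41 and 1.87.

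With the replicate block, which pairs same-numbered libraries, 2648 genes were higher, the call of no member changed, and the log2 ratio changes were 0.22 (Ccl3 to Ccl4) and 1.87 (Ccl9 to Ccl6). An exact test that flips the sign of the same-numbered differences gave p = 0.25 for each ratio, the smallest that 3 pairs allow. With the length trend removed Ccl4 was at 0.30 and Gm38933 at -0.035; with the block as well 1 member was lower, Ccl5 at -0.54, Gm38933 was at -0.042, and 5 atypical receptor and chemokine-binding genes were higher. Of the related genes that did not pass, Ccr6 turned to 0.037 without vehicle replicate 1, in a range of -0.517 to 0.037 with single libraries left out. Gnai3 ranged from -0.117 to 0.0600 with single libraries left out, and stood at 0.066 on library totals, 0.018 with the length trend removed and 0.011 with the block as well. On log2(TPM + 1) and log2(TPM + 0.1) 967 and 953 genes were higher, and the latter left 0 lower receptors. The causes of these differences were not tested. Ccl2 had no adjusted p in DESeq2, and too few counts for the stricter filter and the TPM filter. Depth limits what can be said of Ccl2, Ccl7, Ccl17 and Ccl24.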
